A study of Homo sapiens with 9 samples.

Results

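Clustered distal H3K27ac domains are stretches of chromatin in which several peaks of acetylated lysine 27 of histone H3 (H3K27ac) follow each other closely, away from the ends of protein-coding genes. They were read here from 1 ChIP-seq library of RPMI-8402, a line grown from a T-cell acute lymphoblastic leukaemia (T-ALL). A peak was kept as distal when its summit lay over 1 kb from both ends of every protein-coding gene, neighbouring distal peaks were chained where the gap from the end of one to the start of the next was 12.5 kb or less, and chains of 5 or more peaks were called domains. Of 9857 H3K27ac peaks on chromosomes 1 to 22, X and Y, 2180 peaks (22.1%) were members, and they formed 271 domains. Another 3912 peaks were distal but lay in chains of 4 or fewer and are called scattered, and 3765 peaks had their summit within 1 kb of a gene end and are called gene-end peaks. Members were chosen by their measured summit positions and gaps, and domains were ranked by peak width and enrichment, so the number, spacing, width and height of the peaks are given as descriptions without a test.

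The series asked where NKX2-1, a homeodomain transcription factor of lung and thyroid that is switched on ectopically in some T-ALL cases, binds in this line. It holds 8 further libraries made with an antibody against NKX2-1 (ab76013), each from a different clone. The wild-type (WT) clones were WT10, WT13, WT28 and WT30. The clones C12, C15, S04 and S36 are knockout (KO) clones by the series' design text, while their genotype field reads only NKX2-1. The genotype field of the H3K27ac library reads NKX2-1 as well and no clone is named for it, so whether its cells carried the factor cannot be told from the labels, and it has no replicate. All 9 samples were the same line in the same medium, with no treatment. Each clone gave 1 library, so p-values over these 8 reflect how far clones differ, which may in part be technical. The files are lists of called peaks without read numbers, so sequencing depth is unknown, and a site without a peak was not called rather than shown to lack the mark. Marker genes were looked up for an H3K27ac peak at a gene end or a distal one within 10 kb, which 25.2% of all protein-coding genes had. Of the T-cell markers 6 of 8 had one (CD3D, CD3E, CD3G, LCK, TCF7 and BCL11B). The B-cell markers with 1 of 5 (CD79A) and the myeloid markers with 2 of 5 (CD14 and MPO) were near that share. Of the lung and thyroid genes, TG also had such peaks.

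H3K27ac is laid down by the acetyltransferases p300 and CBP at active promoters and enhancers. Enhancers that lie close together and carry much of this mark are often called super-enhancers. In blood cells and leukaemias they are known from genes that set cell identity, and in T cells RUNX, ETS, GATA and E-box factors are among the proteins that bind them. Scores of such regions depend on the peak caller, since 1 broad stretch of signal can be cut into several neighbouring peaks.

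Sequences are shown for 2 kinds of element that lay on member peaks, mature microRNAs and transcription start sites, because they say what a distal domain can hold. Among 1562 microRNA hairpins with a position in RefSeq (GRCh38.p14), 10 lay within a domain and 4 lay on a member peak (MIR142, MIR193A, MIR4724 and MIR4269), while 27 lay on any H3K27ac peak. MIR142 makes the main microRNA of blood cells, and its hairpin (chr17:58331232-58331318, minus strand) lay on a peak 3500 bp wide with an enrichment of 15.7-fold, the first of the 5 peaks of the 24th domain. MIR193A lay on a peak with an enrichment of 10.3-fold in the 61st domain, within RAB11FIP4. The hairpin of MIR223, the myeloid microRNA, was not in a domain but 552 bp beyond the 29th, which overlapped its host transcript MIR223HG. Capitals mark the seed, bases 2 to 8, by which a microRNA recognises its targets. No seed is shared among the 4 sequences.
hsa-miR-142-5p: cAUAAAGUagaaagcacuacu
hsa-miR-142-3p: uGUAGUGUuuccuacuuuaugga
hsa-miR-193a-5p: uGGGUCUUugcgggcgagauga
hsa-miR-193a-3p: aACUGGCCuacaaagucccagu

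The rule measured distance from the outermost ends of a gene, so a start site inside a gene could lie on a member peak. Promoter windows of RefSeq, each 300 bases long, lay on member peaks in 49 of the 271 domains, and in 222 domains none did. For 20 domains the window belonged to a protein-coding gene and for 34 to a non-coding one. Windows of protein-coding genes lay on 0.963% of member peaks, 5.854% of scattered peaks and 36.95% of gene-end peaks. For non-coding genes the shares were 1.789%, 3.604% and 7.198% in the same order. Member peaks thus had the lowest share for both kinds of gene. The contrast with gene-end peaks follows in part from the rule, which leaves peaks at protein-coding gene ends out of the members. These are shares of peaks and not of domains. Of the first 20 domains, 9 had a window of either kind on a member peak. The 250 bases before the start are printed for 4 genes whose windows lay on a strong or a named member peak. At ERG, an ETS factor of blood stem cells and endothelium, the start lay 131243 bp inside the gene, 833 bp from the summit of a peak 6955 bp wide. At CDK6, the cyclin-dependent kinase of the G1 phase, the start was the gene's own end, but the summit of the peak of 8471 bp that covered it lay 2889 bp away. At RUNX1, the core-binding factor of haematopoiesis and T-cell development, the start lay 100898 bp inside the gene on a member peak of the 121st domain. MIR142HG is the host transcript of MIR142. The 250 bases before each start were searched on both strands for 5 motifs and their reverse complements, and capitals mark each match. The letters TGTGGT stood for the motif that RUNX factors bind. For ETS factors the core that was searched read CGGAAG. The E-box of the TAL1 and E-protein type was written as CAGCTG, which reads the same on both strands, and the motif of the GATA family as AGATAA. The motif bound by NKX2-1 itself was searched as CAAGTG.
ERG, chr21:38498505-38498754, minus strand: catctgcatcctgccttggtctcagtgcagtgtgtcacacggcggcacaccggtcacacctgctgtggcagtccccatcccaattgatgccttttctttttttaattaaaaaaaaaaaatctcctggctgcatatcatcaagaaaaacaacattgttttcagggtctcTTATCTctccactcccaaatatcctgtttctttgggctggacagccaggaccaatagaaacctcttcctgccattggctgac
CDK6, chr7:92836574-92836823, minus strand: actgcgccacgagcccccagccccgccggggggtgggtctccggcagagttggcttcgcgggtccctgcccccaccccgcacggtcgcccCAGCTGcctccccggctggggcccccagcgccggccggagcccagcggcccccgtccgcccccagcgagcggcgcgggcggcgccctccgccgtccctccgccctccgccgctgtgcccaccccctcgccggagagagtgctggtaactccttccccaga
RUNX1, chr21:34888700-34888949, minus strand: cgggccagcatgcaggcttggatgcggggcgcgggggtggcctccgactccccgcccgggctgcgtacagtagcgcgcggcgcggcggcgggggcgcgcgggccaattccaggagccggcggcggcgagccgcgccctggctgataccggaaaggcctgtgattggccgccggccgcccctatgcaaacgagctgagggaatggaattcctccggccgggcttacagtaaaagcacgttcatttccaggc
MIR142HG, chr17:58332521-58332770, minus strand: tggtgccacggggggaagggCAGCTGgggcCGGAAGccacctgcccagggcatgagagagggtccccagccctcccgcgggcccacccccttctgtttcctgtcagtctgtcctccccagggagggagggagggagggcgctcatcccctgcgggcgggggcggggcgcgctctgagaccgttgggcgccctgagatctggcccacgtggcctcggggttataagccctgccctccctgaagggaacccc

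The 250 bases printed for ERG held 1 GATA motif and 3 CpG dinucleotides. Those for CDK6 held 30 CpG and an E-box, and those for RUNX1 32 CpG and no searched motif. In all other windows, too, CpG and motifs were counted in the 250 bases before the start site. Over the 66 windows on member peaks the median was 8 CpG, against 11 over all 35116 windows. It was 21 over the 2535 windows on any H3K27ac peak. A GATA motif stood in 12 of the 66 windows (18.2%, 95% Wilson interval 10.7 to 29.1%), in 9.17% of all windows and in 3.98% of those on any H3K27ac peak. The other motifs stood in 13.6% (RUNX), 12.1% (ETS), 13.6% (E-box) and 7.58% (NKX2-1) of the windows on member peaks, against 10.98%, 16.5%, 13.99% and 9.50% of all windows. On any H3K27ac peak their shares were 8.05%, 31.4%, 10.8% and 5.25%. The 433 windows on scattered peaks had a median of 21 CpG and a GATA motif in 3.70%. Their shares of the other motifs were 7.16%, 17.6%, 11.3% and 5.08%. A match is a description of these letters and not of a bound factor, and several windows share a gene. Wilson intervals here and below cover counting error only.

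The 271 domains spanned 3.73 to 68.4 kb with a median of 14.3 kb, and 4.51 Mb in all. The median domain had 7 peaks and the richest had 33. Member peaks covered 10.2 to 87.7% of the span of their domain, with a median of 33.6%. Gaps between neighbouring member peaks had a median of 495 bp, and 957 of 1909 gaps (50.1%) were shorter than 500 bp, while 195 were longer than 5000 bp. Many domains were therefore closely set runs of peaks rather than separate elements strung over the full chaining distance. Where neighbours up to 500 bp apart were counted as 1 peak, 108 of the 271 domains still had 5 or more. Just under the limit, 129 chains of 4 peaks had a median span of 6.25 kb and scores of 4.87 to 95.8 kb × fold. Just above it, 68 chains of 5 peaks had a median span of 9.32 kb and scores of 7.32 to 375.7 kb × fold, so the chains on either side of the limit overlapped in score.

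A member peak was much like any other H3K27ac peak, apart from a tail of very wide ones. The fold enrichment at the summit, which is the authors' own value for each peak, had a median of 5.95 in member peaks, 5.94 in scattered peaks and 6.43 in gene-end peaks. The median width was 386.5 bp, 366 bp and 424 bp in the same order. Peaks of 2000 bp or more made up 5.32% of the members (116 peaks), 2.17% of the scattered peaks and 1.62% of the gene-end peaks. The widest peak of all, 10442 bp, was a member. Summits inside a protein-coding gene were as frequent among members (61.2%) as among scattered peaks (62.1%), with 61.8% over all distal peaks. Summits within 1 kb of an end of a long non-coding RNA gene made up 5.41% of the members (118 of 2180, Wilson interval 4.54 to 6.44%) and 10.8% of the scattered peaks (9.85 to 11.8%), with 8.86% over all distal peaks. Of the domains, 179 (66.1%) overlapped a protein-coding gene, and the other 92 lay a median of 62267 bp from the nearest one, 40 of them over 100 kb away. Members made up the largest shares of the peaks on chromosomes 22 (42.6%), 21 (41.4%) and 14 (40.4%), and the smallest on chromosomes 19 (7.64%) and 13 (8.06%). No H3K27ac peak was listed on Y.

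**Figure D1:**
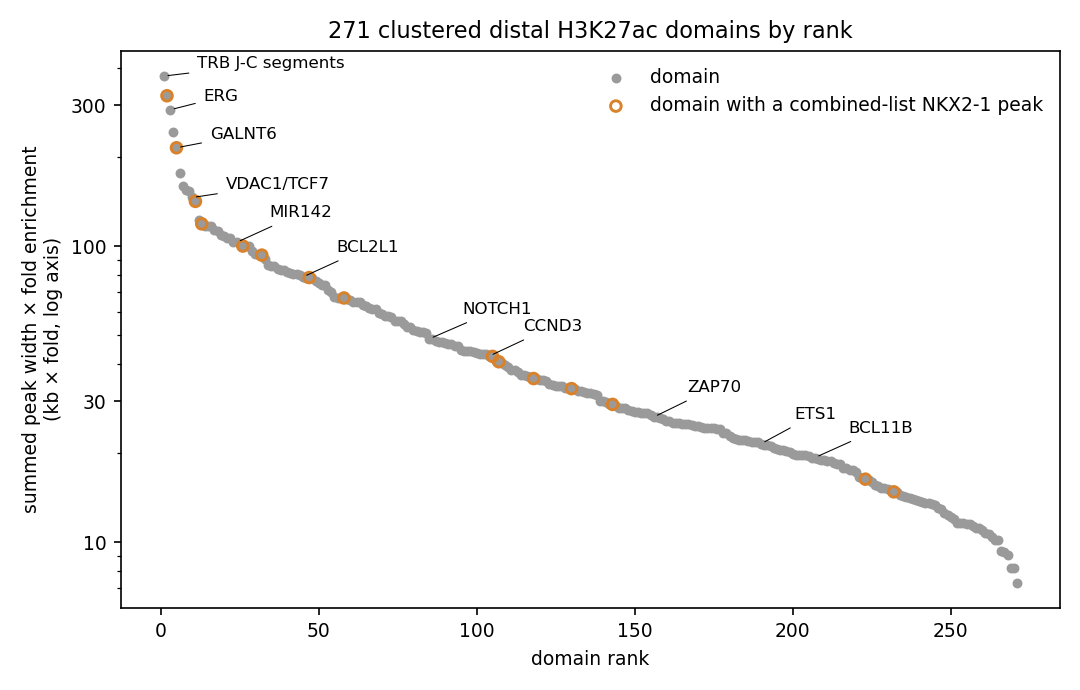
Score of each of the 271 domains (summed peak width in kb times fold enrichment, log axis) against its rank, with named domains labelled and domains that hold a combined-list NKX2-1 peak ringed. The score falls from 375.7 at the first rank to 7.32 at the last. The 15 ringed domains lie at ranks from 2 to 232, most of them in the upper part of the ranking.

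Ranked by the sum of peak width times enrichment, scores ran from 375.7 kb × fold to 7.32 with a median of 31.9, and the first 20 domains held 26.6% of the sum over all domains. The first domain lay over the T-cell receptor beta locus TRB (chr7:142788529-142813153) and took in both constant regions, TRBC1 and TRBC2, the joining segments between them and TRBV30. Its 5 peaks were 4362, 4837, 734, 9063 and 974 bp wide with enrichments of 16.7, 22.3, 10.8, 19.9 and 7.16-fold, so that peaks covered 81.1% of the span. TRB held 4 more domains, over variable segments, at ranks 53, 67, 92 and 196, and 47 of its 58 H3K27ac peaks were members. No other T-cell receptor locus held a domain, and TRA, TRD and TRG had 4, 3 and 2 H3K27ac peaks. TRD lies within TRA, so its 3 peaks are also counted in TRA.

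The immunoglobulin heavy chain locus IGH, which is rearranged in B cells, had 101 H3K27ac peaks, 71 of them members, in 7 domains at ranks 20, 30, 33, 46, 72, 77 and 82. The highest-ranked of these (chr14:106115303-106136014, 11 peaks, strongest 21.6-fold) lay over the variable segments IGHV3-11 to IGHV3-13, and the one at rank 46 over diversity segments. The light chain loci held no domain: IGK had 0 and IGL 3 H3K27ac peaks. Variable segments are related copies of each other, and how reads that match several copies were treated is not given.

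Among the genes within 10 kb of a domain were 3 of 27 members of the ETS family of transcription factors, ERG, ETV6 and ETS1. Over all protein-coding genes the share was 1.24%. The list was chosen with knowledge of this line, and gene length was not allowed for. The 13 peaks of the ERG domain (chr21:38471375-38500193, rank 3) fell into a block of 6056 bp at 19.9-fold, a block of 6955 bp at 19.6-fold and 11 peaks of 202 to 759 bp at 5.45 to 8.14-fold, 8 of them just before the second block. ETV6, a repressor of the same family, had a domain of 13 peaks at rank 7 (chr12:11788422-11815736) whose widest peak was 4833 bp at 18.6-fold, and a weaker one of 9 peaks at rank 192. A domain of 7 peaks at rank 9 lay 154542 bp from ETS2, within LINC02940. ETS1, which is needed for T-cell development, had a domain of 6 peaks at rank 190, with a strongest peak of 10.1-fold. FLI1 had 4 distal peaks within 10 kb but no domain, and the nearest domain was that of ETS1, 202122 bp away.

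T-cell genes came next. The domain at TCF7, the factor that drives T-lineage commitment downstream of NOTCH1, had 11 peaks at rank 10 (chr5:134093308-134139376) and also overlapped its neighbour VDAC1, a mitochondrial channel. It consisted of a peak of 9740 bp at 13.5-fold inside TCF7 and 10 peaks of 200 to 394 bp at 4.48 to 5.94-fold. The wide peak made up 90.1% of the domain's score. It covered promoter windows of TCF7 whose start sites lay 7395 and 15400 bp from the nearer gene end. BCL11B, the factor that fixes the T-cell fate, had a short domain of 5 peaks at rank 207. A far larger one at rank 11, with 21 peaks over 44.0 kb (chr14:98166965-98210977), lay in the gene desert 958309 bp from BCL11B, its nearest protein-coding gene. RUNX1 had 3 domains, with 12 peaks at rank 89, 7 at rank 111 and 5 at rank 121, and in the last no gap between neighbours was over 500 bp. Its strongest member peaks reached 8.63, 11.6 and 8.14-fold in the 3 domains.

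CDK6 had 2 domains: 7 peaks at its 5′ end at rank 6 (chr7:92826442-92840762), of which a single peak of 8471 bp at 19.4-fold made up most of the width, and 17 peaks of at most 11.3-fold at rank 56, further inside the gene (chr7:92633796-92663069). NOTCH1 had a domain of 12 peaks at rank 85, and a domain of 23 peaks at rank 34 (chr9:136584275-136625885) lay in LINC01451, 32970 bp from EGFL7, the gene next to NOTCH1. Further genes of the first 20 included SCUBE1 at rank 4, the domain with the most peaks (33), and GALNT6 at rank 5, a glycosyltransferase gene with the highest single enrichment of any member peak (25.7-fold). The remaining first-ranked domains overlapped LINC02815 (rank 2, chr1:229091722-229160091, 25 peaks and the longest span, 111019 bp from RAB4A), MYT1, GSE1, NOL4L, RAI1 and IL9R, or lay near CD47, STT3B, CHRNA9 and RXRA.

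**Figure D2:**
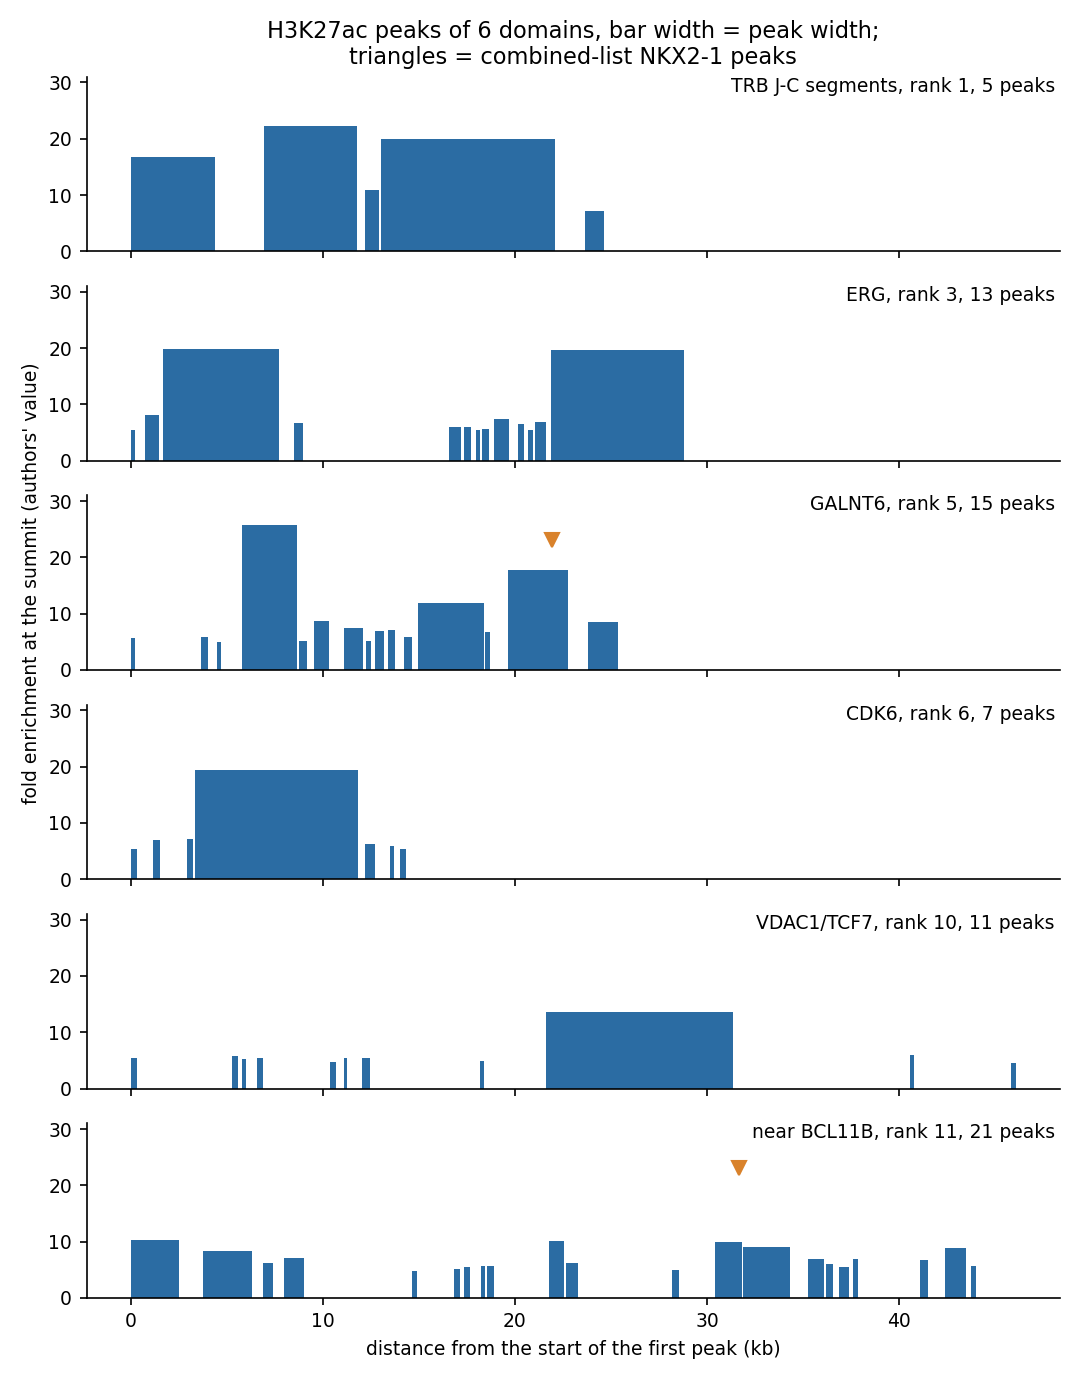
H3K27ac peaks of 6 domains drawn to scale against the distance from the first peak (kb), with the fold enrichment of each peak as its height and combined-list NKX2-1 peaks as triangles. TRB, ERG, CDK6 and TCF7 are dominated by peaks of 4 to 10 kb, while the domain near BCL11B holds 21 peaks of at most 10.3-fold.

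Genes of pathways that matter in T-ALL were then looked up, with a gene counted when its body lay within 10 kb of a domain. Over all 20033 protein-coding genes this held for 248, or 1.24%. Of 360 genes in 15 lists it held for 23 (6.39%). The lists were chosen with knowledge of this line, and their genes differed in length from the rest (median 35.7 kb against 24.1 kb), which was not allowed for. Among 24 T-ALL oncogenic transcription factors it held for ETV6, RUNX1 and BCL11B, and among 20 genes of the TAL1-LMO complex and its partners for RUNX1, ETS1 and ERG. Other genes of these lists had no domain within 10 kb. TAL1, LYL1, LMO1 and MYB had gene-end peaks of 7.16, 12.2, 9.36 and 11.1-fold, and their nearest domains lay 5331695, 19648, 3867843 and 47405 bp away. NKX2-1 had a gene-end peak of 4.72-fold and a chain of 3 distal peaks, short of a domain. Domains at rank 81, inside AHI1, and at rank 241, between AHI1 and MYB, were the closest to MYB. The domain closest to MYC (8 peaks, rank 40, strongest 16.9-fold) lay 1422252 bp from it, on the side of GSDMC.

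For the T-cell receptor complex and its signalling, domains lay at 3 of 28 genes: the kinase gene ZAP70 (5 peaks, rank 156), the phosphatase gene PTPN6 (8 peaks, rank 50) and the phospholipase gene PLCG1 (9 peaks, rank 108). The CD3 chains had gene-end peaks only, at 8.08 (CD3D), 11.8 (CD3E) and 6.92-fold (CD3G). Of 27 T-cell identity factors BCL11B and TCF7 had a domain, and LEF1 had 12 distal peaks within 10 kb in chains of no more than 4. Of 26 thymocyte surface markers CD34, a stem and progenitor marker (16 peaks, rank 48), and CD99 (10 peaks, rank 105) had one. In the NOTCH list it was 4 of 34 genes, NOTCH1, CDK6, CCND3 (14 peaks, rank 104) and IGF1R (7 peaks, rank 144), and among 21 G1 regulators CCND3 and CDK6. Among 23 apoptosis genes it was the anti-apoptotic BCL2L1 (7 peaks, rank 45) and CFLAR (5 peaks, rank 146), while BCL2 had a gene-end peak of 11.3-fold and no domain. In the JAK-STAT list STAT3 and STAT5A shared the domain at rank 49, which spanned the space between them, and CISH lay 5492 bp from the last-ranked domain.

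Lists for housekeeping and for other lineages were read in the same way. None of 47 genes for DNA damage response and repair had a domain within 10 kb, although 25 of them (53.2%) had a gene-end peak, against 18.2% of all protein-coding genes. Of 24 chromatin regulators 12 had a gene-end peak and 1, HDAC7, a domain. None of 14 B-cell and 17 myeloid or erythroid markers had a domain either. At the share of 1.24% over all genes, less than 1 gene would be met in each of these 3 lists, so their counts of 0 show no difference from other genes. In the list of lung and thyroid targets of NKX2-1, none of the 23 genes had a gene-end peak. The thyroglobulin gene TG of that list had a domain of 7 peaks at rank 236, which also overlapped SLA, an adaptor gene of lymphocytes that lies inside TG, and the strongest peak was 7.16-fold.

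**Figure D3:**
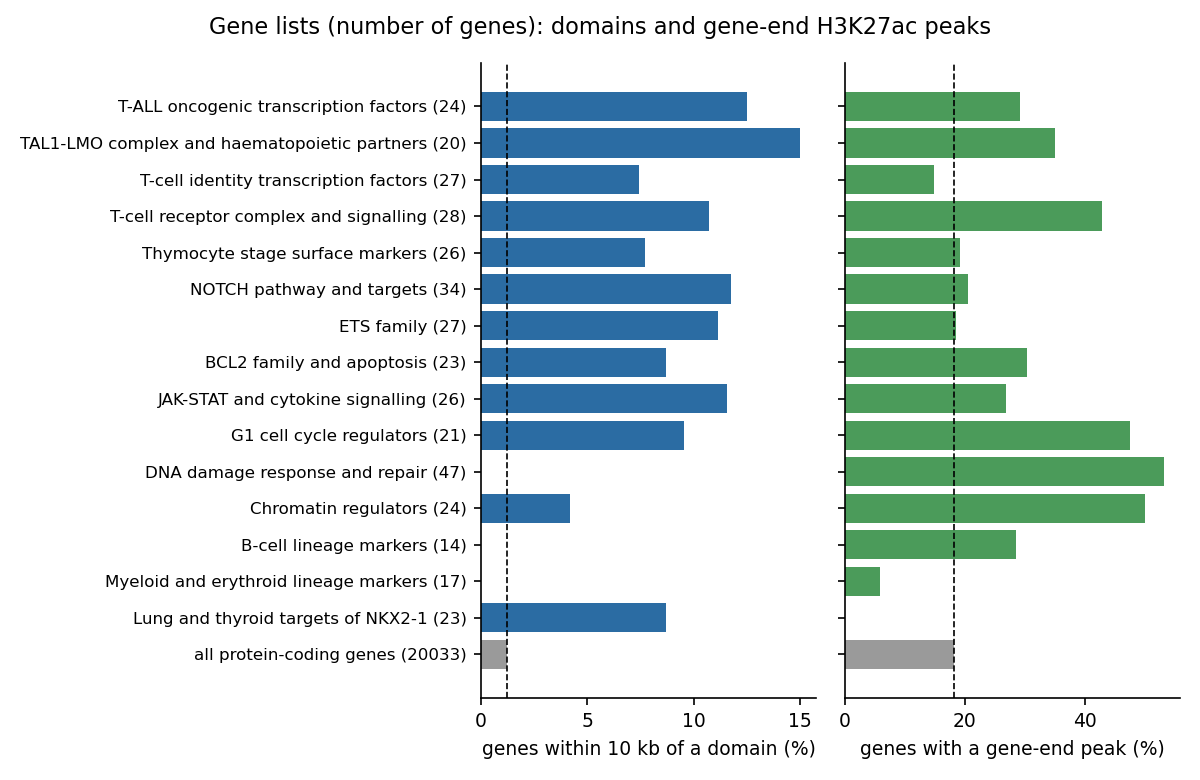
Share of the genes of each list (number of genes in brackets) that lay within 10 kb of a domain (left) and that had an H3K27ac peak within 1 kb of a gene end (right), with the share over all protein-coding genes as a dashed line (1.24% and 18.2%). DNA damage response and repair genes reach 53.2% on the right and 0 on the left.

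Gene-end peaks are left out of the domains by the rule, so they give another readout of the genes beside them, from the same library. Of the 248 genes within 10 kb of a domain, 102 had a gene-end peak (41.1%, Wilson interval 35.2 to 47.3%). The share was 34.0% (31.9 to 36.1%) for 1891 genes near a scattered peak and no domain, and 16.3% for 17894 genes near neither. Where there was a gene-end peak, the median enrichment of the highest was 7.90, 6.89 and 6.66-fold in the same order. Genes near domains were also longer, with a median of 48.9 kb against 24.1 kb over all genes; the part of gene length in these shares was not tested.

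NKX2-1 peaks within domains were few in every library and differed more between clones than between genotypes. An NKX2-1 peak here is any peak called in a library of this antibody, in KO clones too. In a KO clone such a call cannot be taken as bound NKX2-1. Among the WT clones, WT10 had 45 NKX2-1 peaks within domains (3.93% of its 1144 peaks), WT28 14 (1.60%), WT30 10 (1.30%) and WT13 1 (0.135%). Among the KO clones, S36 had 23 (2.46%), C12 6 (0.741%), C15 4 (0.490%) and S04 3 (0.356%). The counts include peaks in the domains near CCDC200 at ranks 102 and 179, an array of near-identical U2 RNA copies. There lay the only peak of WT13 and some of those of WT10, WT28, WT30, C12 and S04, most of them from WT10. They were not left out of the comparison. The highest value was from a WT clone and so was the lowest, and the groups overlapped throughout. WT libraries averaged 1.74 ± 1.59% (SD, n = 4) and KO libraries 1.01 ± 0.980% (n = 4), with p = 0.514 in a two-sided exact permutation test over the 70 assignments of the 8 libraries (adjusted p = 0.571 over 3 such tests). The number of domains with an NKX2-1 peak was 14.5 ± 15.1 against 8.5 ± 8.43 (exact permutation p = 0.571), and the share of member peaks overlapped was 0.608 ± 0.667% against 0.229 ± 0.283% (exact permutation p = 0.429). The smallest p this design allows is 0.0286. Without WT10 the difference in the share of NKX2-1 peaks was −0.00169 percentage points and that in the number of domains −1.17, so WT10 alone set the direction of both.

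In 7 of 8 libraries, NKX2-1 peaks met a larger share of member peaks than of gene-end peaks. The share of member peaks overlapped by an NKX2-1 peak was 1.56% in WT10, 0.459% in WT28, 0.413% in WT30 and 0 in WT13, and 0.642% in S36, 0.183% in C12 and 0.0459% in both C15 and S04. In C15 and S04 this was 1 member peak, the same in both, at BCL2L1. There C12, S36, WT10 and WT28 also had a peak. The test below took the libraries as independent, although they share such sites. It also pooled WT and KO libraries, so its p-value is about calls with this antibody and not about binding by NKX2-1. For gene-end peaks the shares were 0.106% in WT10, 0.266% in S36, 0.0266% in WT28 and C12, and 0 in the other 4. The difference was 0.365 ± 0.474 percentage points (SD, n = 8), with 7 libraries higher for member peaks and 1 (WT13) at 0 for both (two-sided exact permutation test by sign changes, p = 0.0156, adjusted p = 0.0312 over 2 tests). Members were also wider on average (648 bp against 556 bp), and the part of width in the difference was not tested. With 4 libraries a genotype the smallest p is 0.125, and the difference gave p = 0.25 in the WT and p = 0.125 in the KO libraries (exact permutation tests). Without WT10 and S36, the 2 libraries with the most peaks in domains, it was 0.182 percentage points (exact permutation p = 0.0625, the smallest possible for 5 libraries that differ from 0). Against scattered peaks the difference was 0.118 ± 0.217 percentage points (n = 8), higher in 6 libraries and lower in C15 and WT13 (exact permutation p = 0.133), so an excess over other distal peaks was not shown.

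**Figure D4:**
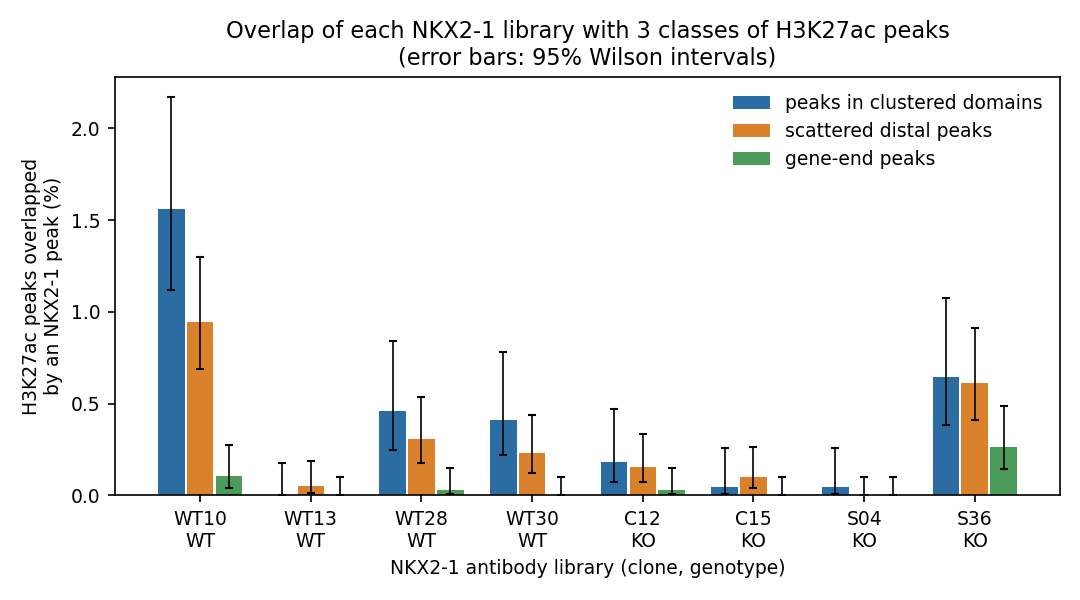
Share of H3K27ac peaks overlapped by an NKX2-1 peak in each of the 8 libraries, for member, scattered and gene-end peaks, with 95% Wilson intervals as error bars. Gene-end peaks are lowest or tied at 0 in all 8 libraries, and WT10 and S36 stand above the other clones of their genotype.

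The authors also deposited a combined list of 209 NKX2-1 peaks and 496 regions that they call WT-only, both made from these libraries. Of the combined list, 15 peaks (7.18%, Wilson interval 4.40 to 11.5%) lay in 15 domains, 1 in each. Member peaks overlapped by a combined-list peak numbered 10, or 0.459% (0.249 to 0.842%), beside 0.325% over all H3K27ac peaks, 0.537% of scattered peaks (0.351 to 0.819%) and 0.0266% of gene-end peaks (1 of 3765). The intervals of member and scattered peaks overlapped. The WT-only list had 41 regions (8.27%) in 33 domains and met 31 member peaks (1.42%, 1.00 to 2.01%), beside 0.629% over all H3K27ac peaks and 0.716% of scattered peaks (0.496 to 1.03%). Of the 15 combined-list peaks in domains, WT10 had a peak at 14, WT28 and WT30 at 6 each, and WT13 and the KO clones at none. The list was made from these libraries in a way that is not given, so this split is no independent evidence on genotype. The same split over all 209 peaks is not given here, so whether it is particular to the domains cannot be told.

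Of the 15 combined-list peaks in domains, 5 lay on no member peak and 7 of the other 10 on a member peak with the highest enrichment in its domain, 1 of them (KRT2) tied with another. In those 10 domains the strongest peak also held 14.2 to 75.9% of the bases under member peaks, with a median of 37.7%. The 15 domains were those at LINC02815 (rank 2), GALNT6 (5), the desert near BCL11B (11), the gene-free stretch near STT3B (13), near CDH26 (26), RHEX (32), near LOC124900752 (47), MSI2 (58), CD99 (105), PIEZO1 (107), KRT2 (118), TNFAIP8 (130), ABCA4 (143), EVPL and SRP68 (223) and SSH2 (232). At KRT2, a keratin gene, the combined-list peak had the highest enrichment of the 15 (6.96-fold, chr12:52662346-52662671) and lay on 1 of the 2 tied strongest of 5 member peaks, 366 bp from its summit. At CD99, a surface glycoprotein of thymocytes and many leukaemias, the value was 6.09-fold (chrX:2707517-2707821) on the strongest of 10 member peaks. GALNT6 and the LINC02815 domain had lower values, 3.25 and 3.41-fold. CD99 and IL9R lie in regions shared by X and Y, where reads of both chromosomes are commonly placed on X.

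By library, 53 domains had a peak in at least 1 of the 8 libraries and 218 in none. Of the 53, 30 were met by WT clones only, 15 by KO clones only and 8 by both, but 19 rested on WT10 alone and 13 on S36 alone. The same split over all H3K27ac peaks is not given here, so whether it is particular to the domains cannot be told. Domains at GALNT6, near STT3B and at CD99 and KRT2 had peaks in 3 WT clones (WT10, WT28 and WT30) and in no KO clone. At CD99 the enrichments were 8.01-fold in WT10, 9.10-fold in WT28 and 6.13-fold in WT30. At KRT2 they were 7.51, 7.26 and 5.38-fold in the same clones. With 1 value per clone and so few domains these patterns are descriptions. The reverse, 3 KO clones and no WT clone, was seen at ITGB2, an integrin gene of leukocytes, with 10.3-fold in S36, 7.43-fold in C12 and 5.57-fold in C15. The peaks at ITGB2 and near STT3B lay within the domain but on no member peak.

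The anti-apoptotic gene BCL2L1 had peaks in all 4 KO clones as well as in WT10 and WT28, at the same place within its domain. They reached 10.1-fold in S36, 6.26-fold in C12, 5.95-fold in C15 and 5.27-fold in S04, against 5.13-fold in WT10 and 4.61-fold in WT28, so the KO values were no lower. MYT1L (rank 193) had peaks in C12, S04, S36 and WT10, all on no member peak. The domain near CCDC200 at rank 102 was met by all 4 WT clones and S04; it and the domain at rank 179 beside it lie at the RNU2-1 array of U2 small nuclear RNA copies, where reads of near-identical copies cannot be told apart. The domains inside ERG, CDK6, TCF7, BCL11B and RUNX1 and those over TRB and IGH held no peak of any NKX2-1 library, while those of ETV6 (rank 7), NOTCH1 and ETS1 were met in S36 only, and STAT5A and CCND3 in WT10 only. The peaks at NOTCH1, ETS1 and CCND3 lay between member peaks and on none of them.

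**Figure D5:**
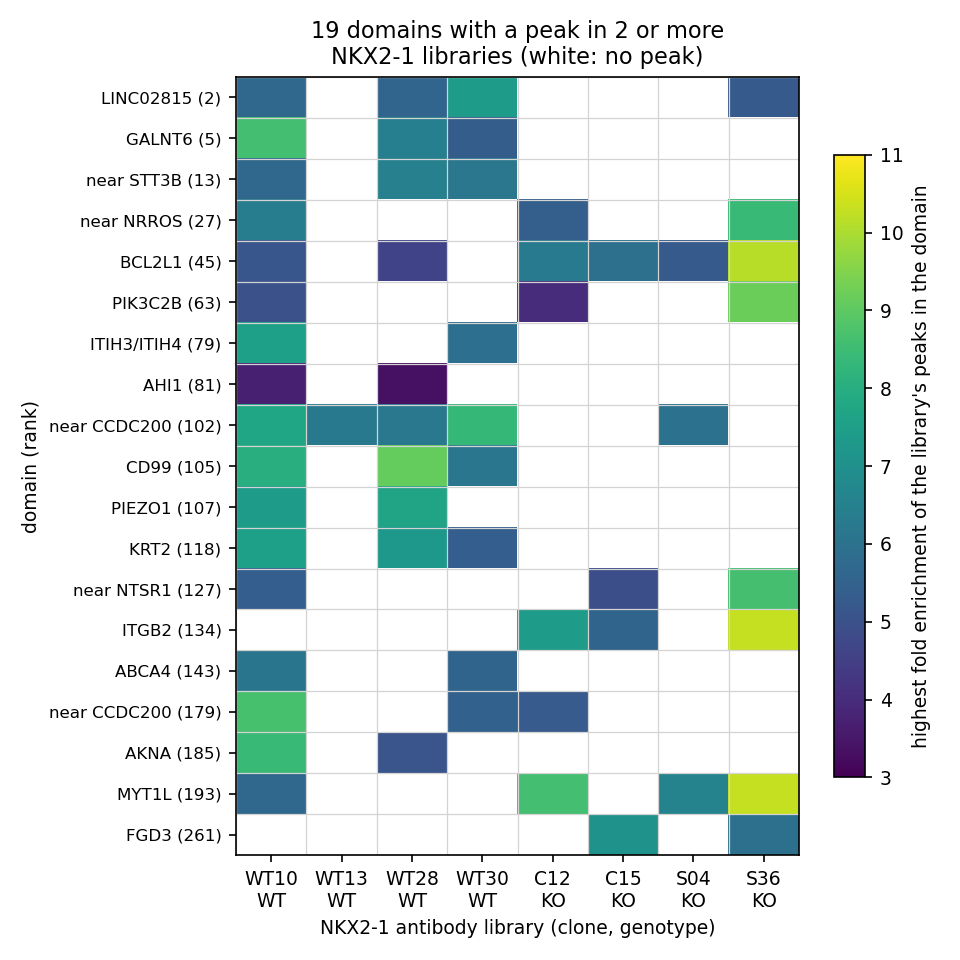
The 19 domains with a peak in 2 or more NKX2-1 libraries (rank in brackets), with the highest fold enrichment of the library's peaks as colour and white for no peak. GALNT6, STT3B, CD99 and KRT2 are coloured in 3 WT columns only, ITGB2 in 3 KO columns only, and BCL2L1 in all 4 KO columns and 2 WT columns.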

How the data were processed

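Per the submitters' processing notes, FastQC, Bowtie2, SAMtools, MACS2 and deepTools were used with the genome build hg38. Their versions and settings, and the control for peak calling, are not given in the sources used here. For every library the authors deposited a peak list with positions, a ratio (fold enrichment at the summit) and the −log10 of a q-value for each peak. The lists hold no read numbers, and neither the scores nor the p-values in them were used. Which libraries entered the combined list is not given there either. Only chromosomes 1 to 22, X and Y were kept (9857 of the 9868 H3K27ac peaks). Coordinates are 1-based, and an overlap is 1 bp or more. Genes (20033 protein-coding), promoter windows and microRNAs came from RefSeq tables of GRCh38.p14, the assembly of hg38; the gene table has no exons, so exon, intron and UTR could not be assigned. All 360 list genes matched it; the values of 1 item are not reported here. Chaining, overlaps and tests ran in Python 3.11.15 with pandas 2.3.3, NumPy 2.4.6 and SciPy 1.17.1 and were tested on simulated data. Group means were compared by exact permutation of the 8 libraries and shares within a library by exact sign changes, with Benjamini-Hochberg adjustment over 3 and 2 tests. Named were the first 20 domains, those with a combined-list peak, those at list genes, and those with the most peaks, the longest span and the highest enrichment. Domains named by the libraries that met them, by a microRNA or by distance to a gene were chosen after their values were seen. The domains, lists and tests were chosen with earlier results of these data known. Alternatives changed the chaining gap, the number of peaks, the distances, the q-value limits, the overlap, the ranking and the libraries; merging peaks up to 500 bp apart and leaving out WT10 and S36 together were added after seeing the data.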

Additional observations from a re-analysis of the deposited data

Results flagged for a closer look

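Of 16 sets of 4 libraries looked at, 3 had a library far from the other 3 of its genotype. Chance alone sets apart about 1 in 20 such sets. S36 had an NKX2-1 peak in 21 domains, while the other KO libraries had one in 3 to 6. S36 also overlapped 0.266% of gene-end peaks, against 0 to 0.0266% in the other KO libraries. In C15 the share of member peaks overlapped minus that of scattered peaks was −0.0564 percentage points, against 0.0287 to 0.0459 in the other KO libraries.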

How the results depend on the processing

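The number of domains moved with the q-value limit and with how peaks were counted. With 8 or more peaks a chain there were 104 domains with 1200 peaks, 7 combined-list peaks and 13 list genes (0.509% of all protein-coding genes then lay near a domain), and the excess over gene-end peaks was 0.301 percentage points (exact permutation p = 0.0625). With H3K27ac peaks of −log10 q of 5 or more there were 45 domains with 284 peaks, 4 combined-list peaks, 5 list genes and a gene-end peak at 33.3% of the genes near a domain, and the excess over scattered peaks was 0.471 percentage points (exact permutation p = 0.0391). With peaks up to 500 bp apart counted as 1 there were 108 domains with 1160 peaks, 8 combined-list peaks and 13 list genes, and 13 of the first 20 domains were kept; TRB, ERG and CDK6 at rank 6 were not. Without WT10 and S36 the excess over gene-end peaks was 0.182 percentage points (exact permutation p = 0.0625). Ranking by the number of peaks kept 6 of the first 20 domains and by width times −log10 q 17. Leaving out each library in turn, WT minus KO ranged from −0.00169 to 1.26 percentage points for NKX2-1 peaks in domains, from −1.17 to 10.5 for domains with a peak and from 0.0612 to 0.581 percentage points for member peaks overlapped; both values below 0 were without WT10. The excess over gene-end peaks ranged from 0.21 to 0.418 (exact permutation p = 0.0156 to 0.0312) and that over scattered peaks from 0.0474 to 0.143. The cause of these shifts was not tested. No paired analysis was possible because the clones carry no number that WT and KO share. The other 109 values kept their direction and their side of the threshold, or for counts stayed within 1.5 times.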
